A study of Mus musculus with 6 samples.

Results

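The homeobox and paired box genes of the face and dorsal neural tube, Alx1, Alx4, Msx1, Msx2, Prrx1, Prrx2, Pax3, Pax7 and Pax9, were followed in RNAseq of GFP+ cells sorted as neural crest cells (NCCs). They were chosen by name, with earlier results of these data known. The 9 rows were found among the 46983 genes of the count table through their Ensembl identifiers in GENCODE M21. The cells were sorted at E11.25 from control embryos (Wnt1Cre/+;BAF155 flox/+;BAF170 flox/+;Rosa26 mTmG/+) and from BAF155/170-deficient embryos, which were flox/flox at BAF155 and at BAF170 and otherwise carried the same Wnt1Cre/+ and Rosa26 mTmG/+ alleles, with 3 libraries in each group. BAF155 and BAF170 are core subunits of the BAF chromatin remodeling complex. Both groups carried Wnt1Cre, which recombines in the dorsal neural tube and its crest derivatives, and the mTmG reporter, which turns on GFP after recombination. The controls also lose 1 copy of each subunit gene in these cells, so they are heterozygous and not wild type. Per the methods, cells came from 3 embryos of each genotype, and p-values measure the spread between these libraries.

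NCCs leave the dorsal neural tube and give rise to the skeleton and connective tissue of the face, to peripheral neurons and glia, and to pigment cells. The 9 genes encode DNA-binding proteins used along that path. Pax3 and Pax7 act at the neural plate border and in the dorsal neural tube, while Msx1 and Msx2 respond to BMP signals in dorsal tissue and again in the jaw and tooth primordia. Alx1, Alx4, Prrx1 and Prrx2 mark the mesenchyme of the facial prominences and pharyngeal arches, and Pax9 serves the pharyngeal pouches and the tooth mesenchyme. Alx and Prrx proteins have a paired-class homeodomain, the Pax proteins bind DNA through a paired domain, and homeodomains commonly recognise a core of the letters TAAT.

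RefSeq entries of 250 bases before the start site (GRCm38.p6) matched 6 of the 9 genes: Msx1, Msx2, Prrx1, Prrx2, Pax7 and Pax9. These start sites differ from the GENCODE M21 gene bounds given below. Against those bounds, the windows of Msx2, Prrx2, Pax7 and Pax9 lay inside the gene. The Prrx1 window overlapped its gene in part, and only that of Msx1 lay wholly before it. The sequences of the Msx and Prrx pairs are shown because the expression of these related genes is compared within each library further on. Capitals mark matches, on either strand, to 5 strings of letters. A homeodomain core was searched as TAATTA, which reads the same on both strands. The letters of the TATA box were TATAAA and those of the CCAAT box were as its name says. For the GC box GGGCGG was used, and for the core bound by Tead factors the letters were GGAATG. Each runs 5′ to 3′ on the strand of its gene and ends at the base before the start site.
Msx1 (chr5:37824586-37824835, minus strand): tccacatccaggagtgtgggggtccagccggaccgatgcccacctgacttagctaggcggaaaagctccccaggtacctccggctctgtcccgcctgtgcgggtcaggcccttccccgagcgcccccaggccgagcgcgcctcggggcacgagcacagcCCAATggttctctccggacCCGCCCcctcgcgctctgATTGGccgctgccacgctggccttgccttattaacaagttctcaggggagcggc
Msx2 (chr13:53472781-53473030, minus strand): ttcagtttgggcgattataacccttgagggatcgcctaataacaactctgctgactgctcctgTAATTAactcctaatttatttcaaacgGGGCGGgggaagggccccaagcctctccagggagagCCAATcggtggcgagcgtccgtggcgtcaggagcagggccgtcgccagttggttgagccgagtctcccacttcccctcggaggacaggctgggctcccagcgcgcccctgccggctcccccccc
Prrx1 (chr1:163313651-163313900, minus strand): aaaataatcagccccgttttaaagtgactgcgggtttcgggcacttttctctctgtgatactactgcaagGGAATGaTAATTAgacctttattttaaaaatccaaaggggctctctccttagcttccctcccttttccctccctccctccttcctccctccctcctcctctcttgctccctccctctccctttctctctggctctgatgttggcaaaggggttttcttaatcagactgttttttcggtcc
Prrx2 (chr2:30845117-30845366, plus strand): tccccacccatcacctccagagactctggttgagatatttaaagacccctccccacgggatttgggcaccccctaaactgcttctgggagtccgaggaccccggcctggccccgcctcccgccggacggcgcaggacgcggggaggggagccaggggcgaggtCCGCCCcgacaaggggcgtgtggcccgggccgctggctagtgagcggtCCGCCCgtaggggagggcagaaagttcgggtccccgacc
TAATTA stood in the Msx2 window, 187 bases before the start, and in that of Prrx1, 173 bases before it, so each pair had 1 member with these letters and 1 without. In Prrx1 the match came 1 base after the Tead core, which began 180 bases before the start. Over 32851 promoter windows of the same length, 4.84% held the homeodomain core, 12.6% the Tead core, 33.9% a CCAAT box, 32.7% a GC box and 12.4% a TATA box. Msx1 had 2 matches to the CCAAT box and 1 to the GC box, and Msx2 had 1 of each. A GC box was found at 2 places in Prrx2 and at 1 in Pax7, whereas Pax9 held none of the 5 strings. No TATA box letters were found in the 6 windows. GC content was 70.0% in Prrx2, 68.0% in Msx1, 65.2% in Pax7, 61.6% in Msx2, 47.6% in Prrx1 and 43.6% in Pax9, against a median of 52.4% over all windows. A match is a description of these letters and not evidence of binding.

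The libraries held between 8191219 and 11661941 counts on genes in the controls and between 12633319 and 19808620 in the deficient group, so the deepest control still held fewer counts than the shallowest deficient library. Of 13961 genes tested, 681 were called lower, that is 4.88% of all genes, and 8 higher. To be called, a gene needed an adjusted p no higher than 0.1, a log2 fold change beyond 0.58 up or down, and on average 2 or more counts scaled to library size (CPM, on TMM-normalized library sizes). Smarcc1, which encodes BAF155, had 44.0 ± 10.05 CPM in controls and 26.7 ± 2.47 CPM in deficient libraries (SD, n = 3 each), and its fall passed the test (log2 fold change −0.71, SE 0.16, adjusted p = 0.0676, edgeR). Smarcc2, which encodes BAF170, had 91.3 and 84.8 CPM (log2 fold change −0.11, SE 0.058, adjusted p = 0.251). Counts per gene do not separate the floxed exons from the rest of a transcript. Against the label of the cells, the 12 macrophage markers listed summed to between 12121 and 14003 CPM in controls and between 14126 and 15434 CPM in deficient libraries, led by Ctss, a lysosomal protease, with means of 3584 and 4064 CPM. The 15 facial mesenchyme markers summed to between 298 and 477 CPM in controls and between 196 and 247 CPM in the deficient group, and the 9 factors together to between 19.2 and 71.3 CPM over all libraries. The marker sums and the depth moved with the groups, and their part in the results on the 9 genes was not tested.

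All 9 genes passed the filter on low counts. All 9 had negative log2 fold changes, beside 52.3% of all genes tested. Alx1, Alx4, Msx1 and Prrx1 were called lower in the BAF155/170-deficient libraries, that is 4 of the 9, beside 4.88% of all genes. The median log2 fold change of the 9 was −1.13, beside −0.02 over all genes tested. In 6 genes every deficient library lay below every control library (Alx1, Alx4, Msx1, Prrx1, Prrx2 and Pax9), as did 16.4% of all genes, while the groups overlapped in Msx2, Pax3 and Pax7. The filter on low counts could be met by the controls alone. Prrx2 and Pax9, with 5 and 9 counts in their lowest deficient library, passed it through their controls, so their separation is not independent of the filter. At the adjusted p alone 5 of the 9 were lower, beside 7.75% of all genes. In these bulk samples, fewer cells of a type and less RNA per cell cannot be told apart. The count of 4 depended on single libraries, as did the number of calls over all genes. It was 0 without control replicate 1 or without deficient replicate 3, where 0 and 17 genes of the whole table were called lower. Without control replicate 2 or without deficient replicate 2 it was 1, beside 61 and 219 genes. Without control replicate 3 it was 4 and without deficient replicate 1 it was 5, beside 1219 and 1028 genes. Between 14222 and 14430 genes were tested in these fits. With the libraries scaled to 29 embryonic marker genes in place of TMM, none of the 9 was called (edgeR, 1 with an unadjusted p under 0.05). In that scaling 0 of 13961 genes were called lower over the whole table. With DESeq2 and with limma-voom 4 of the 9 were called lower, beside 843 and 829 of 13961 genes.

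**Figure D1:**
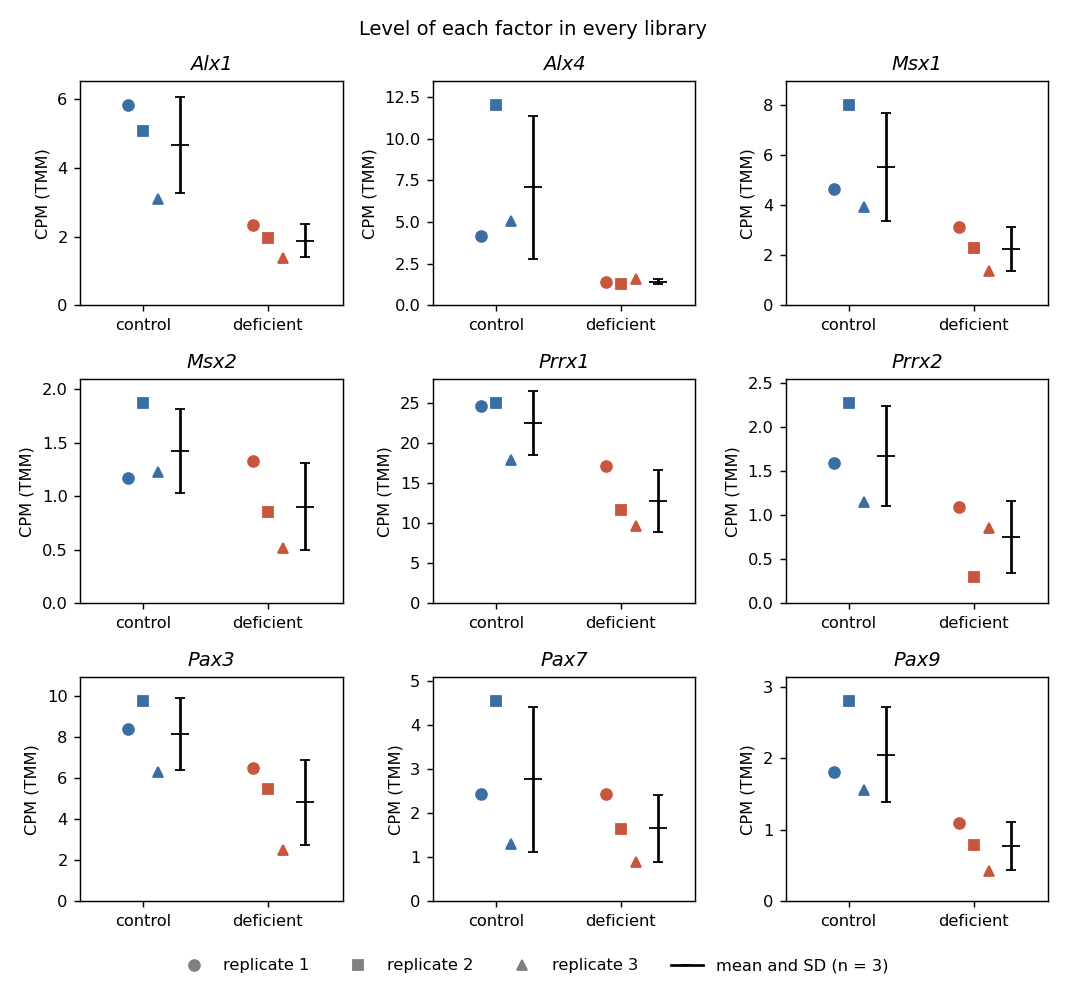
Level of each of the 9 factors in every library, in CPM on a linear axis from 0, with controls in blue and BAF155/170-deficient libraries in red; symbols stand for replicates and black bars for the mean and SD (n = 3). Groups are separate in 6 panels and overlap in Msx2, Pax3 and Pax7, and control replicate 2 is the top library in every panel but that of Alx1.

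Among the mesenchymal genes, Alx4, which patterns the upper face and limb, had the largest difference of the 9. Its raw counts were 39, 90 and 62 in control replicates 1 to 3 and 18, 21 and 34 in deficient replicates 1 to 3, and its levels 4.14, 12.01 and 5.08 CPM against 1.41, 1.28 and 1.61 CPM. Alx4 thus fell by 79.2%, with a log2 fold change of −2.26 (SE 0.40, adjusted p = 0.0483). Control replicate 2 stood well above the other controls, and without it the log2 fold change was −1.68 (adjusted p = 0.0911). The call was lost without control replicate 1 (adjusted p = 0.214) and without deficient replicate 3 (adjusted p = 0.139). The deficient libraries kept within a narrow range, with a mean of 1.43 ± 0.167 CPM against 7.07 ± 4.30 CPM in controls (SD, n = 3 each). Alx4 (ENSMUSG00000040310.12) lies on the plus strand at chr2:93642384-93681339 of GRCm38, and no exon of another gene overlaps its exons.

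Alx1, a factor needed for the midface and the frontal region, had 55, 38 and 38 counts in controls and 30, 32 and 29 in deficient libraries. The levels were 5.84, 5.07 and 3.11 CPM against 2.34, 1.95 and 1.37 CPM, with no overlap. Alx1 fell by 59.7% (log2 fold change −1.31, SE 0.32, adjusted p = 0.0674), from 4.67 ± 1.41 to 1.89 ± 0.488 CPM (SD, n = 3 each). Its call was lost without replicate 1 or 2 of the controls (adjusted p = 0.245 and 0.199) and without replicate 2 or 3 of the deficient group (0.107 and 0.213). Alx1 (ENSMUSG00000036602.13, minus strand, chr10:102998707-103030215) shares 243 exonic bases with the lincRNA Gm17028 on the same strand, so some of its reads may have been counted otherwise.

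Prrx1, which marks mesenchyme of the arches and limbs, was the most abundant of the 9 by CPM. It had 24.6, 25.0 and 17.8 CPM in controls and 17.1, 11.6 and 9.66 CPM in deficient libraries. Deficient replicate 1 came within 1 CPM of control replicate 3, and the other deficient libraries lay well below. Prrx1 fell by 43.3% (log2 fold change −0.82, SE 0.22, adjusted p = 0.0888), from 22.5 ± 4.01 to 12.8 ± 3.86 CPM (SD, n = 3 each). In raw counts it had 232, 187 and 218 in controls and 219, 191 and 204 in deficient libraries, ranges that overlap, since the deficient libraries were deeper. The call of Prrx1 was lost without replicate 1 or 2 of the controls (adjusted p = 0.257 and 0.273) and without replicate 2 or 3 of the deficient group (0.19 and 0.238). Prrx1 (ENSMUSG00000026586.16) lies on the minus strand at chr1:163245119-163313710.

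For Prrx2, the partner of Prrx1 in the same mesenchyme, counts were 15, 17 and 14 in controls and 14, 5 and 18 in deficient libraries. Its levels of 1.59, 2.27 and 1.146 CPM and of 1.09, 0.305 and 0.853 CPM did not overlap, but control replicate 3 and deficient replicate 1 were close. The log2 fold change of −1.13 (SE 0.50) did not pass the threshold (adjusted p = 0.17), and its 95% interval ran from −2.22 to −0.04. At 5 to 18 counts a library, differences of this size are poorly measured. Prrx2 (ENSMUSG00000039476.13) lies on the plus strand at chr2:30834972-30881251.

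Of the BMP-responsive pair, Msx1 fell and Msx2 was not called. Msx1, which is required for tooth and palate development, had 44, 60 and 48 counts in controls and 40, 38 and 29 in deficient libraries. This came to 4.67, 8.01 and 3.93 CPM against 3.13, 2.32 and 1.37 CPM, with control replicate 2 again highest and deficient replicate 3 lowest. Msx1 fell by 59.1% (log2 fold change −1.29, SE 0.36, adjusted p = 0.0809), and it was no longer called without replicate 1 or 2 of the controls (adjusted p = 0.237 and 0.255) or without replicate 2 or 3 of the deficient group (0.148 and 0.249). Msx2, which acts in the skull vault and in teeth, had 11, 14 and 15 counts in controls and 17, 14 and 11 in deficient libraries. Its levels were 1.17, 1.87 and 1.23 CPM against 1.33, 0.853 and 0.521 CPM, and deficient replicate 1 lay above 2 of the controls. The log2 fold change of Msx2 was −0.68 (SE 0.46, adjusted p = 0.364), with a 95% interval from −1.68 to 0.33 that takes in the value of Msx1. Msx1 (ENSMUSG00000048450.10) lies at chr5:37820485-37824583 and Msx2 (ENSMUSG00000021469.9) at chr13:53466884-53473074, both on the minus strand.

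The 3 Pax genes were not called. Pax3, which specifies dorsal neural tube and crest, had 79, 73 and 77 counts in controls and 83, 90 and 53 in deficient libraries, or 8.38, 9.74 and 6.30 CPM against 6.48, 5.49 and 2.51 CPM. Deficient replicate 1 lay just above control replicate 3, and deficient replicate 3 was far below the others. Its log2 fold change was −0.77 (SE 0.33, adjusted p = 0.174), and without deficient replicate 1 it was −1.03 and passed the threshold (adjusted p = 0.0982). Pax7, a paralogue of Pax3 that is also used in muscle progenitors, had 2.44, 4.54 and 1.31 CPM in controls and 2.42, 1.65 and 0.900 CPM in deficient libraries. Control replicate 3 fell among the deficient values, and the log2 fold change of −0.72 (SE 0.49, adjusted p = 0.371) had a 95% interval from −1.82 to 0.37. Pax3 (ENSMUSG00000004872.15) lies at chr1:78101267-78197134 and Pax7 (ENSMUSG00000028736.13) at chr4:139737062-139833528, both on the minus strand.

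Pax9 had 17, 21 and 19 counts in controls and 14, 13 and 9 in deficient libraries, and 1.80, 2.80 and 1.56 CPM against 1.09, 0.792 and 0.426 CPM. The groups did not overlap, the log2 fold change was −1.43 (SE 0.45) and the adjusted p was 0.0926, but its mean of 1.41 CPM was under the minimum of 2 CPM, so Pax9 was not called. Pax9 (ENSMUSG00000001497.18, plus strand, chr12:56691767-56712822) shares 189 exonic bases with Slc25a21 on the opposite strand. The strand setting of the counting is not given in the sources used here, so reads of Slc25a21 in this overlap may be included.

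Levels per length were compared as RPKM, the CPM divided by exon length in kilobases, with the exon lengths of GENCODE M21. In controls the order of mean RPKM was Prrx1 (2.03), Msx1 (1.79), Pax3 (1.32), Alx4 (1.002), Prrx2 (0.851), Alx1 (0.812), Pax7 (0.471), Msx2 (0.433) and Pax9 (0.406). No neighbours in this order were separated in all control libraries. In the deficient group Prrx1 (1.16) again came first and Pax9 (0.152) last, while Alx4 (0.203) came next to last, after standing above 5 of the others in the controls.

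**Figure D2:**
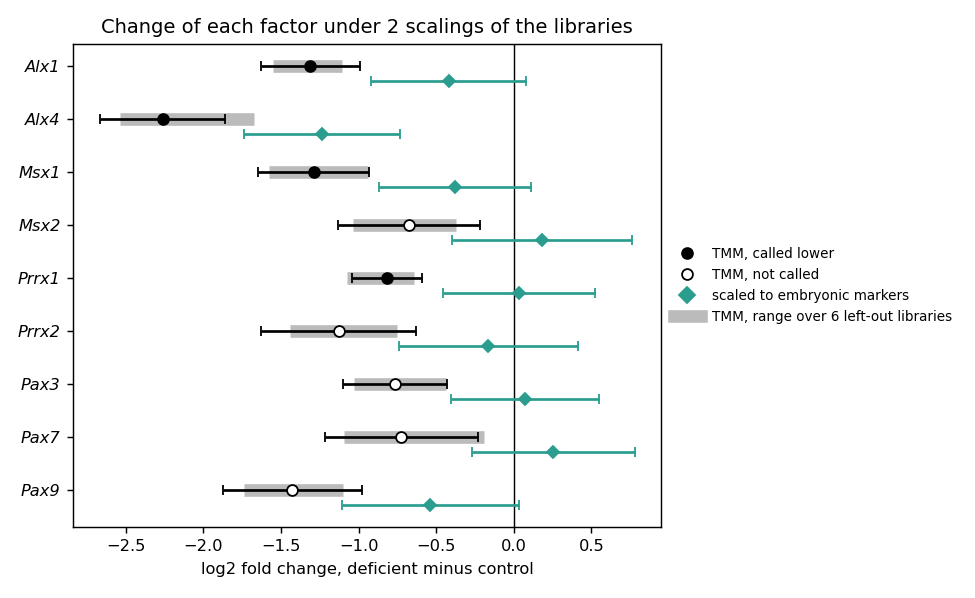
Log2 fold change (deficient minus control) of each factor with its SE under TMM (circles, filled where called lower) and with libraries scaled to embryonic markers (green diamonds); grey bars span the TMM values with each of the 6 libraries left out. All TMM values and grey bars lie below 0, whereas the green values run from −1.24 for Alx4 to 0.26 for Pax7.

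Scaled to the embryonic markers, which removes any change these markers share, the median over all genes moved from −0.02 to 0.81. The log2 fold change of Alx4 was then −1.24 (SE 0.50, adjusted p = 0.211), that of Pax9 −0.54, that of Alx1 −0.42, that of Msx1 −0.38 and that of Prrx2 −0.16. Those of Prrx1, Pax3, Msx2 and Pax7 turned positive, at 0.04, 0.07, 0.18 and 0.26. Adjusted p values of the 9 genes ran from 0.211 to 0.957 in this scaling (edgeR). All 9 lay below the median of all genes under both scalings. A change of scaling shifts all genes by a similar amount, so this is 1 comparison and not a second result.

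Within a library the ratio of 2 counts does not depend on how libraries are scaled, so the related pairs were also compared that way. The log2 ratio of Msx1 to Msx2 was 1.95, 2.06 and 1.65 in controls and 1.21, 1.41 and 1.36 in deficient libraries. Its mean went from 1.89 ± 0.22 to 1.33 ± 0.10 (SD, n = 3 each), a difference of −0.56 (exact two-sided permutation test, p = 0.1, which is as low as 3 libraries a group can reach; 0.4 after Benjamini-Hochberg adjustment over the 4 pairs). The groups did not overlap, but the counting error of a single ratio was between 0.41 and 0.50. With 3 libraries a group the exact permutation test cannot pass a threshold of 0.05, so it does not settle whether Msx1 and Msx2 responded differently.

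The other pairs gave overlapping groups. The log2 ratio of Alx1 to Alx4 was 0.49, −1.23 and −0.70 in controls and 0.72, 0.60 and −0.23 in deficient libraries (difference 0.84, exact permutation p = 0.2, adjusted 0.4). Control replicate 1 had more Alx1 than Alx4 and the other controls fewer. For Prrx1 to Prrx2 the difference was 0.42 (exact permutation p = 0.4, adjusted 0.53), with deficient replicate 2, where Prrx2 had 5 counts, at 5.12 and the other libraries between 3.42 and 3.92. The ratio of Pax3 to Pax7 differed by −0.17 (exact permutation p = 0.7, adjusted 0.7), and the controls alone spread from 1.09 to 2.23.

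**Figure D3:**
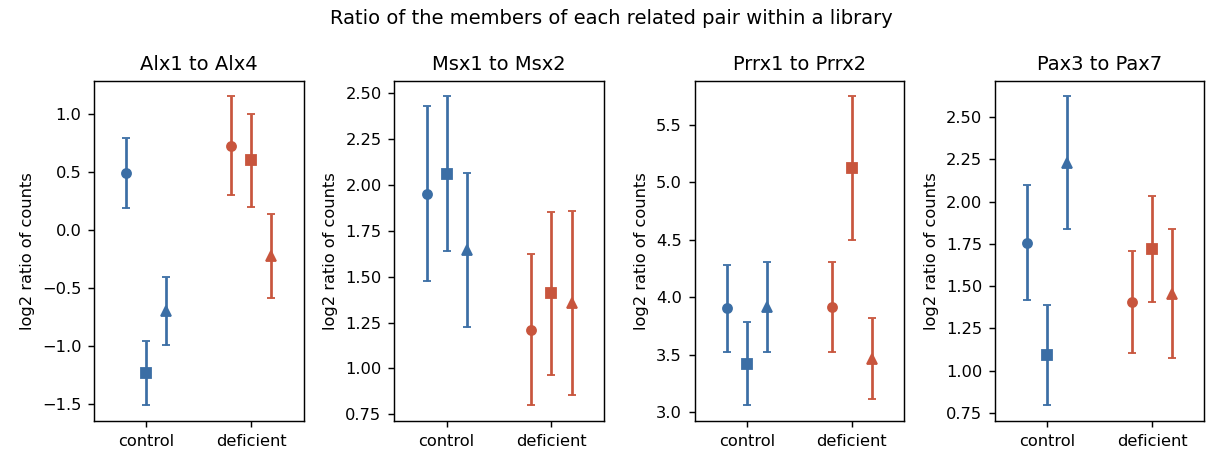
Log2 ratio of the raw counts (pseudocount 0.5) of each related pair within a library, for 3 control (blue) and 3 deficient (red) libraries; bars are the counting error (1 SE) of each ratio, and the vertical axes differ and do not start at 0. The groups are separate only for Msx1 to Msx2, where the error bars of the groups overlap.

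The 9 genes also moved together from library to library. Averaged over the standardised profiles, the controls stood at 0.63, 1.28 and 0.15 and the deficient libraries at −0.04, −0.74 and −1.28 SD. This order, from control replicate 2 down to deficient replicate 3, was the reverse of the order of library depth in all 6 libraries. Summed raw counts of the 9 genes were 515, 534 and 507 in controls and 466, 431 and 406 in deficient libraries, a range of 1.32-fold, while the depth ranged over 2.42-fold. In Msx1, Prrx1 and Pax9 the CPM was lower at each step of depth, as it was in 3.58% of all genes. Summed macrophage markers followed depth in the same direction, the lowest sum being 12121 CPM, in the shallowest library, and the highest 15434 CPM, in the deepest. Depth and condition cannot be told apart here, as no deficient library was as shallow as a control. Each library was also thinned at random to the total of the smallest, an alternative chosen after seeing the data. Of 13086 genes then tested, 641 were called lower, among them Alx1, Alx4 and Msx1. Prrx1 had a log2 fold change of −0.70 (adjusted p = 0.101, edgeR), and Msx2 no longer passed the filter.

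**Figure D4:**
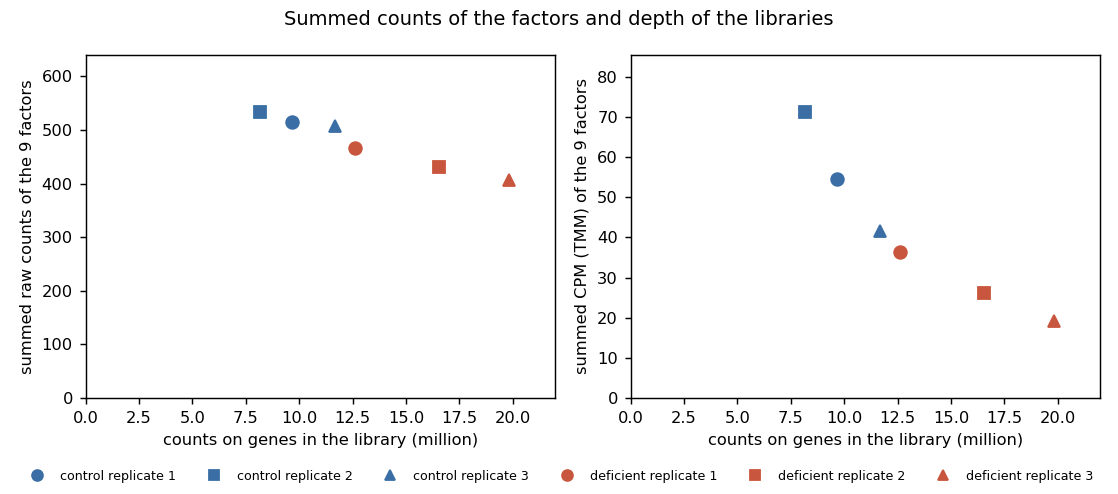
Summed raw counts (left) and summed CPM (right) of the 9 factors against the counts on genes of each library, scaled as the axis states, with controls in blue and deficient libraries in red; both axes start at 0. Raw sums lie between 406 and 534, and the summed CPM goes from 71.3 in the shallowest library to 19.2 in the deepest.

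Over the 6 libraries, the correlation of each gene with the mean of the other 8 was 0.99 for Msx1 and Pax9, 0.97 for Prrx1, 0.92 for Alx1, 0.91 for Msx2 and Pax3, 0.84 for Pax7, 0.82 for Alx4 and 0.75 for Prrx2. These values describe 6 libraries that share depth and group. Of 10787 candidate genes, those with profiles most like the mean of the 9 were Nedd4 (r = 0.998), B4galt2 (0.998), Ipo9 (0.997), Fbn2 (0.997) and Camsap2 (0.996). B4galt2, a galactosyltransferase, and Ipo9, a nuclear import receptor, were called lower. Nedd4, a ubiquitin ligase with 159 and 83.3 CPM in the 2 groups, and Fbn2, which encodes the matrix protein fibrillin-2, were not (adjusted p = 0.151 and 0.164).

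Other genes of the jaw and tooth mesenchyme were lower with them. Of 22 such genes 16 were tested, 15 had negative log2 fold changes, and 9 were called lower, led by Tfap2b, Six2, Shox2 and Runx2. Over all genes tested, 52.3% were negative and 4.88% were called lower. The median log2 fold change of the 16 was −1.17. Tfap2b, an AP-2 factor of facial crest, fell from 11.5, 18.0 and 9.58 CPM in controls to 6.02, 2.74 and 3.36 CPM (log2 fold change −1.70, SE 0.33, adjusted p = 0.0583). Six2 (−1.68), Shox2 (−1.59), a palate and limb homeobox gene, and Runx2 (−1.49), the master factor of bone formation, followed. Lhx8 (−1.59, adjusted p = 0.0878) and Bmp7 (−1.27, adjusted p = 0.0964) passed the adjusted p but were under the minimum of 2 CPM. Inhba, which encodes an activin subunit, was the only one with a positive value (0.16, adjusted p = 0.316). The count of 9 was 0 when replicate 1 or 2 of the controls or replicate 3 of the deficient group was left out. In those fits 0, 61 and 17 genes of the whole table were called lower. The jaw and tooth genes called were 4 without deficient replicate 2, beside 219 genes. With scaling to embryonic markers they were 0, as over the whole table.

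The 23 paired-class and Msx relatives found in the table were mostly too low to test. Of 10 tested, all had negative log2 fold changes (52.3% over all genes), with a median of −1.04, and Shox2 alone was called (4.88% over all genes). Msx3, the third Msx gene, which is expressed in the dorsal neural tube, had 1.06, 3.87 and 2.21 CPM in controls and 1.17, 1.40 and 0.474 CPM in deficient libraries (log2 fold change −1.23, SE 0.53, adjusted p = 0.162). Otx2, a forebrain and midbrain factor, had a log2 fold change of −0.28 (SE 0.40, adjusted p = 0.703), with overlapping groups.

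Among 16 partners and targets of Pax3 and Pax7, 10 were tested, with a median of −0.92. Sox10, which Pax3 regulates in glial and pigment lineages, fell from 4.35, 7.74 and 2.21 CPM to 1.48, 0.853 and 1.184 CPM (log2 fold change −1.99, SE 0.45, adjusted p = 0.0625), and Tfap2a fell by 58.6% (−1.27, SE 0.28, adjusted p = 0.0559). Met, a receptor that Pax3 controls in migrating muscle precursors, had 9.44, 10.3 and 10.6 CPM in controls and 13.1, 13.7 and 14.1 CPM in deficient libraries. Its log2 fold change of 0.43 (adjusted p = 0.0848) was under the fold minimum. Mitf, the pigment cell factor, which macrophages also express, had 57.8, 56.1 and 63.0 CPM against 66.8, 66.1 and 68.7 CPM (0.19, adjusted p = 0.113). Myf5 and Myod1, the muscle factors downstream of Pax3, had at most 2 counts in a library.

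**Figure D5:**
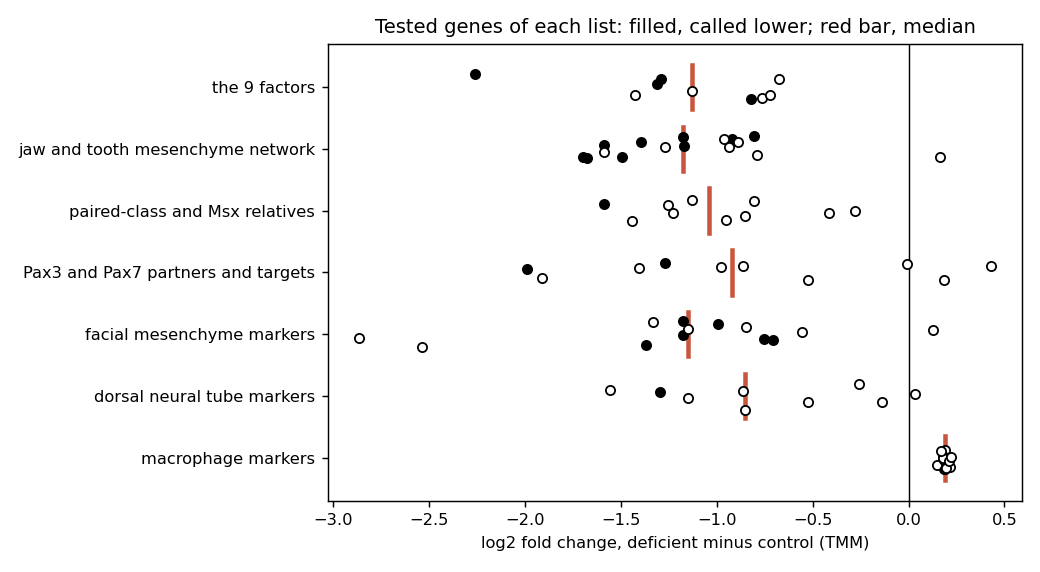
Log2 fold change (deficient minus control, TMM) of every tested gene of 7 lists, with genes called lower as filled points, others open, and the median of each list as a red bar; vertical scatter within a list carries no value. Medians stand at −1.13 for the 9 factors and −1.17 for the jaw and tooth mesenchyme network, and the macrophage markers gather around 0.19.

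Markers of the cells that could hold these genes were read beside them. Of 13 tested facial mesenchyme markers 6 were called lower (Pdgfra, Col1a1, Col1a2, Col3a1, Twist1 and Crabp1), with a median log2 fold change of −1.150, beside −1.13 for the 9 factors. Over all genes tested 4.88% were called lower. The 9 dorsal neural tube markers tested had a median of −0.85 and 1 call, Sox3, while their summed level ran from 32.3 to 54.6 CPM in controls and from 16.9 to 37.1 CPM in deficient libraries, with overlap. Sensory neuron markers had a median of −1.47 with 3 of 10 called, crest glia −1.09 with 1 of 4 called, and autonomic neurons −0.80 with none of 3. For skeletal muscle, a source of Pax3 and Pax7, Mymk was at 0 in every library and Myf5, Myf6, Myod1 and Myog had at most 2 counts. Of the contractile and filament genes on that list, Actc1 had 56.2 and 55.6 CPM in controls and deficient libraries, Des 21.1 and 19.4 CPM and Tnnt1 2.77 and 2.22 CPM, none of them called, and the 8 genes summed to between 72.6 and 85.5 CPM. No epithelial or endodermal marker, of the pouches that express Pax9, passed the filter, and the 12 together summed to at most 7.34 CPM in controls and 2.74 CPM in deficient libraries. All 12 macrophage markers had positive log2 fold changes with a median of 0.19 and none was called. In 7 of them every deficient library lay above every control library. The share of all genes with that upward pattern was not computed, so 7 has no background beside it. Adgre1 and Cd14 passed the adjusted p (0.0924 and 0.0843, edgeR) but were under the fold minimum. Erythroid, endothelial and neutrophil markers had medians of −0.49, 0.06 and 0.51 with no call. The erythroid genes were split, with 5 of 9 tested negative and 4 positive. The globins Hbb-y and Hba-x were lowest, at −2.07 and −1.90 (adjusted p = 0.106 and 0.182, edgeR).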

How the data were processed

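Per the methods, the authors trimmed reads of strand-specific poly(A) libraries (FastQC 0.11.7 and cutadapt 1.18 in the submitters' processing notes), mapped these to GRCm38 by STAR and obtained counts per gene from featureCounts. The authors deposited the whole-number counts per gene without normalization. The annotation release and strand setting are not given in the sources used here. Of 46983 identifiers, 46488 matched GENCODE M21 with the version left out. Counts were fitted in R 4.3.3 with edgeR 4.0.16 (filterByExpr, minimum count 10, minimum total 15; TMM; robust quasi-likelihood test; condition as the only term; Benjamini-Hochberg over 13961 genes; 95% intervals from the test's degrees of freedom), and tested on simulated data. The simulation gave all genes the same dispersion, so it does not cover low-count genes with a wider spread between replicates. CPM, RPKM and log2 fold changes were computed from the deposited counts. Counting intervals cover counting error only. No 2 libraries of the same group agreed within sampling noise.

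The genes named are the 9 factors, at most 4 called genes of each pathway list with the largest change and any called the other way, marker genes at 0 or most abundant, the 5 most similar profiles, Smarcc1 and Smarcc2; other names were picked after their values were seen. The members and lists were chosen with earlier results of these data known. Alternatives were DESeq2 1.42.0, limma-voom 3.58.1, other scalings, filters and thresholds, an exon length trend (lowess, span 0.3), a replicate block and each library left out. Single values of some listed genes are not reported here.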

Additional observations from a re-analysis of the deposited data

How the results depend on the processing

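The 4 of 9 factors called lower became 0 with scaling to embryonic markers and 1 at an adjusted p of at most 0.05, and between 0 and 5 with each library left out. The jaw and tooth genes called, 9 in all, became 0 with that scaling, 5 with a minimum count of 30 and 1 at an adjusted p of at most 0.05, and between 0 and 10 with each library left out. Genes called lower over the whole table ran from 0 to 1219 with a library left out, and were 0 with scaling to embryonic markers. Of 139 values of single factors under the alternatives 135 were negative, and the 4 positive ones were those of Msx2 (0.18), Prrx1 (0.035), Pax3 (0.072) and Pax7 (0.26) with scaling to embryonic markers; the cause was not tested. The difference between groups (deficient minus control) in the log2 ratio of Prrx1 to Prrx2 lay between −0.054 and 0.77 with each library left out, and that of Pax3 to Pax7 between −0.47 and 0.10. The replicate numbers of the sample titles were not taken to pair the samples: the deviations of same-numbered samples correlated at 0.03, −0.03 and 0.29, and control replicate 2 correlated best with deficient replicate 1 (0.26). The sample descriptions number the deficient libraries differently, from 2 to 4, so that by them control replicate 2 shares its number with deficient replicate 1 (0.26) and control replicate 3 with deficient replicate 2 (0.00042). With a replicate block by the titles' numbers 5 factors were called, Pax3 being added (log2 fold change −0.83, adjusted p = 0.0199, edgeR), 1143 genes were called lower over the table, and 9 jaw and tooth genes; the ratio of Msx1 to Msx2 then had p = 0.25 in the exact permutation test, which is its floor with 3 pairs. Factors with few counts a library (5 to 21 for Msx2, Prrx2 and Pax9) are limited by depth.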
